A study of Mus musculus with 4 samples.

Results

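The 10 genes described here make the machinery by which a cell shows peptides of its own proteins on MHC class I. They were picked by name and role from the 19059 genes counted, with earlier results of these data known, and all 10 were present: the heavy chain genes H2-K1 and H2-D1, the light chain gene B2m, the transporter genes Tap1 and Tap2, Tapbp (tapasin), the immunoproteasome subunit genes Psmb8, Psmb9 and Psmb10, and Nlrc5. MC38 cells, a mouse colon carcinoma line, were injected under the skin of humanized CTLA-4 mice (B-hCTLA-4, C57BL/6 host strain, age not stated). From a tumor volume of about 100 mm3 the mice received 3 treatments, and on day 8 the tumors of 11 mice per group were pooled into 1 sample. Viable cells sorted for CD45 were fixed, hybridized to barcoded probe sets (Chromium Flex), pooled for capture and sequenced, 1 library for each of 4 groups. Mice per group, day of harvest, starting volume and doses are those of the sample records, from which the article differs.

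The isotype library came from mice given a human IgG1 control antibody at 10 mg/kg. The combination library came from mice given ipilimumab, a human IgG1 antibody to human CTLA-4, at 10 mg/kg and an antibody to mouse FcgRII with a silenced Fc part at 20 mg/kg. For the single-antibody libraries the labels conflict: each carries 1 antibody in its title and the other antibody in its treatment field. They are called by their titles, the library titled anti-human CTLA-4 and the library titled anti-mouse FcgRII, and which group was given ipilimumab is not known. Every group is 1 pooled library, so group and library cannot be told apart, no test between groups was possible, and intervals below are 95% intervals for counting error alone.

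In the MHC class I pathway the proteasome cuts proteins into peptides, and under interferon the subunits encoded by Psmb8, Psmb9 and Psmb10 replace the constitutive catalytic subunits. The TAP1 and TAP2 proteins form the pump that carries peptides into the endoplasmic reticulum, where tapasin holds an empty heavy chain and its light chain, beta-2-microglobulin, next to that pump until a peptide binds. Nearly all nucleated cells use the pathway, CD8 T cells read what it displays, and NLRC5 is the transactivator that drives the class I genes, with interferon gamma and IRF1 upstream of it.

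Of these genes, 7 lie in the MHC on chromosome 17 (GRCm38), among them Tapbp (chr17:33915899-33929292), H2-K1 (chr17:33996017-34000347) and H2-D1 (chr17:35262730-35267499). Psmb9 (chr17:34181987-34187764, minus strand) and Tap1 (chr17:34187553-34197225, plus strand) stand head to head and share 212 bases in these GENCODE positions. In RefSeq their start sites lie 226 bases apart, without overlap of the genes. They are followed by Psmb8 (chr17:34197721-34201454) and Tap2 (chr17:34203527-34216321). B2m (chr2:122147686-122153083), Nlrc5 (chr8:94434356-94527272) and Psmb10 (chr8:105935735-105938444) lie elsewhere. Promoter windows in RefSeq (GRCm38.p6) were found for 8 of the 10 genes. The 250 bases before the start site of both heavy chain genes and of B2m are printed because these genes encode the chains of the displayed molecule and because their values parted in these data. Capitals mark matches to a kappaB pattern (GGG and CCC separated by 4 bases) in the heavy chain genes and to an interferon response pattern (GAAA, 2 bases, GAAA) in B2m, each searched on both strands.
H2-K1, chr17:34000348-34000597, minus strand: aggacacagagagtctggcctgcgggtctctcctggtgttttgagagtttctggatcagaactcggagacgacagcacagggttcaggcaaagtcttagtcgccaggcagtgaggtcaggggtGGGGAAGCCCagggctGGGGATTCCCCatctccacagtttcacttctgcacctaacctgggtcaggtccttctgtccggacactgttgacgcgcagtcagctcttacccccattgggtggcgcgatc
H2-D1, chr17:35262844-35263093, plus strand: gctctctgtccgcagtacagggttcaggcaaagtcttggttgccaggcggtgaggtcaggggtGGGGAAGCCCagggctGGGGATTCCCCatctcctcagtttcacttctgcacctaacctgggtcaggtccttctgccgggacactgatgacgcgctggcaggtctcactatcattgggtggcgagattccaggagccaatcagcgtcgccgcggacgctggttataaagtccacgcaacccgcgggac
B2m, chr2:122147437-122147686, plus strand: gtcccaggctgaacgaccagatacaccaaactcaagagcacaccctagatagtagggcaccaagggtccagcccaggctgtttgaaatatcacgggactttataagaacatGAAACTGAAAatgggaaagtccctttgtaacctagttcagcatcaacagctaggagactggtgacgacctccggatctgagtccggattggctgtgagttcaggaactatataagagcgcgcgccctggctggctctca

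The heavy chain promoters are close copies: over the 227 bases that could be aligned, 206 (90.7%) were identical. Both hold the same 3 kappaB matches, of which 2 overlap, at 127, 111 and 110 bases before the start of H2-K1 and at 187, 171 and 170 bases before that of H2-D1. The kappaB pattern was found in 2 of the 8 windows of these genes and in 11.9% of all 32851 mouse windows of the same length, 300 bases. The interferon response pattern was found in 1 of the 8, B2m, at 139 bases before its start, and in 3.44% of all windows. Only this strict form was searched, so a window without a match can still hold a looser form. Both heavy chain sequences hold tttcacttc, which lacks 1 base of the interferon response pattern as it reads on the other strand. The B2m sequence holds gggaaagtccc, which has 1 base more between GGG and CCC than the kappaB pattern. A match is a description of letters and not a site of binding.

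The deposited matrices held 28290 cells and between 129151823 and 196362818 UMIs (unique molecular identifiers, 1 per captured probe molecule) per library. Filters left 26785 cells, 7741 for isotype, 6046 for the library titled anti-human CTLA-4, 5779 for that titled anti-mouse FcgRII and 7219 for the combination. Cells were clustered without the 10 genes and named from marker genes: monocytes, macrophages and dendritic cells (4423 to 5698 cells per library), T cells (229 to 617), NK cells and ILC1 (301 to 556), neutrophils (48 to 473) and, despite the CD45 sort, tumor or stromal cells (73 to 97). No full cell barcode occurred in 2 libraries, but 4461 of 23366 droplet barcodes (19.1%) did, since probe-barcoded samples were pooled in the same run. The level of a gene is the sum of its UMIs over a class per 1000000 UMIs of that class (CPM), so it does not depend on how many cells of the class a library held. Probe capture differs between genes, so levels were compared between libraries and classes and not between genes. The probes' specificity among H2-K1, H2-D1, H2-Q6 and H2-Q7, members of the same gene family, is not given in the sources used here, and values of these genes are uncertain to that extent.

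Monocytes, macrophages and dendritic cells of the combination held more of all 10 transcripts than those of isotype, where 28.2% of all genes stood higher. The combination was the highest of the 4 libraries for each of the 10, as it was for 20.8% of all genes measured there. The ratio of combination to isotype reached 1.5 for H2-K1, B2m, Tap1 and Tapbp, 4 of the 10 genes, where 3.66% of 8747 genes tested reached it. The median ratio was 1.48 over the 10 genes and 0.926 over all genes. The library titled anti-mouse FcgRII was the lowest for 9 of the 10, all but B2m, as it was for 22.7% of all genes measured there.

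**Figure D1:**
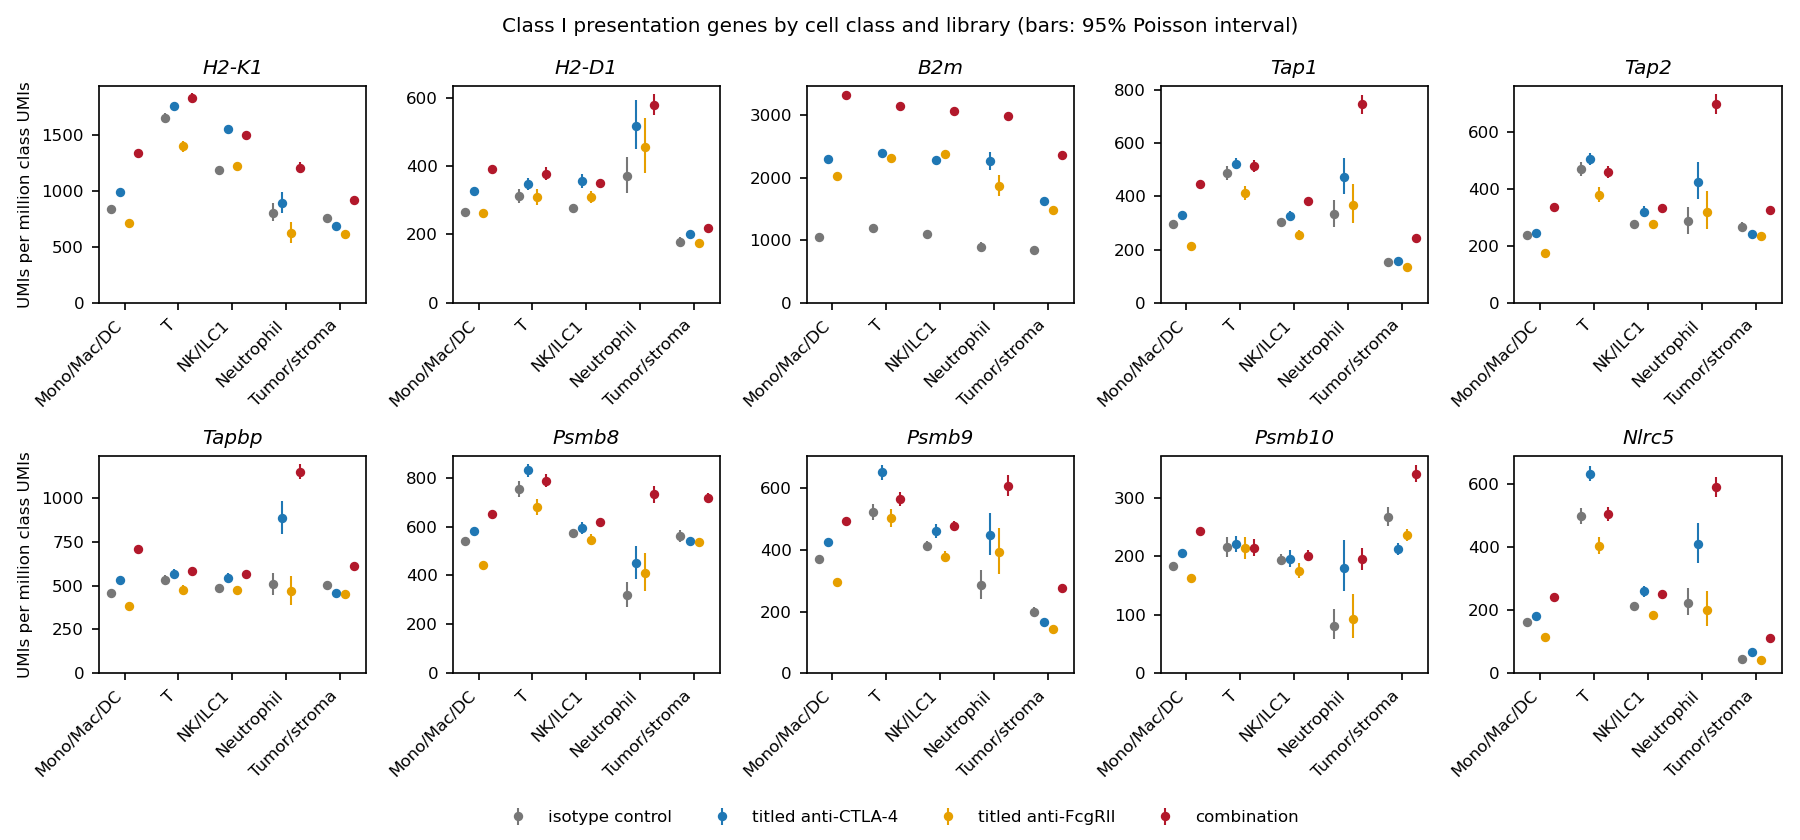
Level of each of the 10 genes (UMIs per 1000000 UMIs of the class, axis from 0) in 5 cell classes, with 1 point per library and 95% Poisson intervals, many of them smaller than the points. In monocytes, macrophages and dendritic cells, neutrophils and tumor or stromal cells the combination (red) is the highest library for all 10 genes, and for B2m isotype (grey) lies far below the 3 other libraries in every class.

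H2-K1, a classical heavy chain gene, stood at 837 CPM in isotype, 995 in the library titled anti-human CTLA-4, 711 in that titled anti-mouse FcgRII and 1343 in the combination. The combination was 1.60 times isotype (interval 1.59 to 1.62). H2-D1, the other classical heavy chain gene, stood at 266, 329, 263 and 392 CPM in the same order, with a ratio of 1.47 (1.45 to 1.497). For both genes the combination was highest, the library titled anti-human CTLA-4 next, and the others lowest. B2m, which encodes the light chain that pairs with class I heavy chains, followed another order, with isotype alone at the bottom. It stood at 1043 CPM in isotype, 2297 and 2022 in the libraries titled for the single antibodies and 3326 in the combination, a ratio of 3.19 (3.17 to 3.21).

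The peptide pump and its partner followed the heavy chains. Tap1 stood at 297, 331, 213 and 448 CPM, a combination to isotype ratio of 1.51 (1.49 to 1.53). Tap2 stood at 237, 246, 174 and 338 CPM, a ratio of 1.43 (1.40 to 1.45). Tapbp stood at 457, 535, 384 and 708 CPM, a ratio of 1.55 (1.53 to 1.56). For all 3 the library titled anti-mouse FcgRII lay below isotype, at 0.717 of it for Tap1, 0.735 for Tap2 and 0.840 for Tapbp.

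The immunoproteasome genes differed less. Psmb8 stood at 543, 583, 443 and 651 CPM, a ratio of 1.20 (1.19 to 1.21), the smallest of the 10. Psmb9 stood at 370, 426, 297 and 494 CPM, a ratio of 1.33, and Psmb10 at 184, 206, 163 and 243 CPM, a ratio of 1.32. The transactivator gene Nlrc5 stood at 161, 182, 114 and 241 CPM, a ratio of 1.49 (1.47 to 1.52), just under the 1.5-fold limit. Median-of-ratios scaling moved the median of all genes in this class by 0.116 on the log2 scale, more than 0.1, from -0.110 to 0.00546. With it 7 of the 10 genes reached 1.5-fold. That scaling raised the ratios of all genes alike, and the share of all genes that reached 1.5-fold under it is not given.

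The combination was also higher than each library titled for a single antibody in this class, for all 10 genes. Of all genes, 35.3% stood higher than in the library titled anti-human CTLA-4 and 34.7% than in that titled anti-mouse FcgRII. Over the library titled anti-human CTLA-4 no gene of the 10 reached 1.5-fold (2.88% of all genes did), with ratios from 1.12 for Psmb8 to 1.45 for B2m and a median of 1.33. Over the library titled anti-mouse FcgRII 7 of the 10 reached it (5.34% of all genes did), with a median of 1.753 and the highest ratios for Nlrc5 (2.12) and Tap1 (2.10). The direction held against both, so it does not depend on which of them received ipilimumab.

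**Figure D2:**
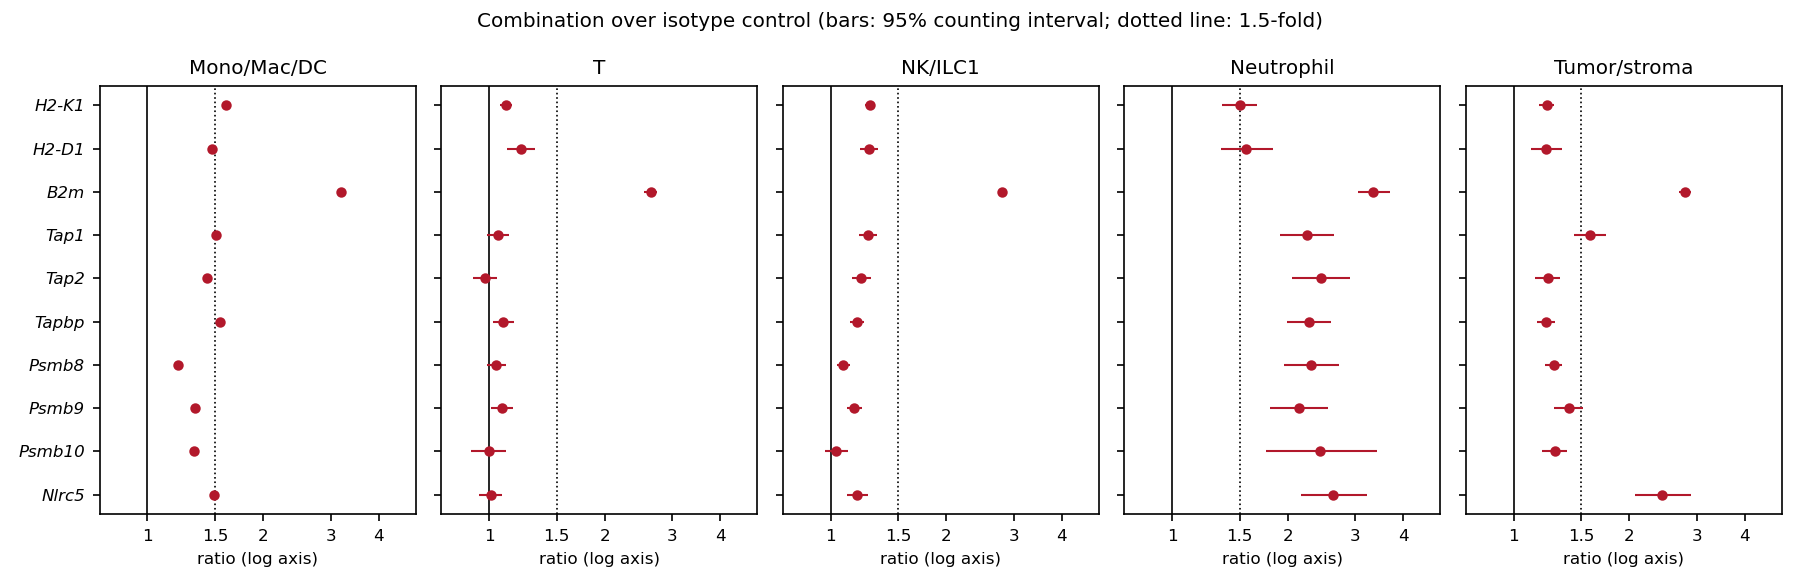
Ratio of the combination to isotype (log axis) for each gene in 5 cell classes, with 95% counting intervals, a solid line at 1 and a dotted line at 1.5. Neutrophils lie at or above 1.5 for nearly all genes, T cells lie near 1 except for B2m, and B2m lies between 2.64 and 3.34 in every class.

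These differences were also seen within single clusters of the class, which were made after integration of the 4 libraries. Without integration the libraries lay in different clusters of the class: a cluster led by Nos2, Slpi and Procr held 41, 174, 37 and 1259 cells in the order used above, and one led by Cbr2, Folr2 and Gas6 held 728, 549, 1410 and 396. With the class formed from those clusters, 3 of the 10 genes reached 1.5-fold and the median ratio was 1.49. That clustering also used another method and did not leave out the 10 genes, so more than integration differed. In all 16 integrated clusters H2-K1, H2-D1, B2m, Tap1 and Tapbp stood above isotype in the combination, as did Tap2, Psmb8 and Psmb9 in 15, Nlrc5 in 14 and Psmb10 in 13. Some of these gaps had overlapping intervals, such as H2-D1 in cluster 22, at 328 CPM (284 to 376) in isotype and 347 (303 to 396) in the combination. With the clusters weighted alike in every library, 2 of the 10 genes reached 1.5-fold and the median ratio was 1.46. For the counts over clusters, with clusters weighted alike and without integration, the share of all genes is not given.

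The 16 clusters were unequal in size of difference. Cluster 1, 466 to 696 macrophages per library led by the protease gene Ctsk, the heat-shock genes Hspa1a and Hspa1b and the heme oxygenase gene Hmox1, had a median ratio of 2.08 over the 10 genes against 0.938 over all genes. There 9 of the 10 reached 1.5-fold, all but Psmb8 at 1.47, where 7.13% of all genes in that cluster did. H2-K1 stood at 735, 869, 567 and 1504 CPM in cluster 1, from isotype to combination in the order used above. Tap1 stood at 167, 192, 105 and 392 CPM, and Nlrc5 at 69.3, 78.8, 39.6 and 154 CPM. In isotype this cluster held less of these transcripts than the class as a whole, and in the combination its H2-K1 lay above that of the class while its Tap1 and Nlrc5 lay below.

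Cluster 5, led by the matrix genes Thbs1 and Fn1 and by Spp1 and Arg1, came next with a median ratio of 1.62. Toward the other end stood cluster 6, monocytes led by Plac8 and Chil3, with a median of 1.22. In that cluster Tap1 was already at 513 CPM in isotype and reached 623 in the combination, and Psmb10 stood at 294 and 292 CPM. Cluster 9, led by the interferon-induced genes Rsad2, Ifit2 and Ifit3, had a median of 1.31, with Nlrc5 at 328 CPM in isotype and 394 in the combination. Cluster 21, also led by Hspa1a and Hspa1b but with 25 to 78 cells per library, had a median of 1.16, and cluster 22 (26 to 57 cells) of 1.13. The medians over all genes in these clusters are not given.

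**Figure D3:**
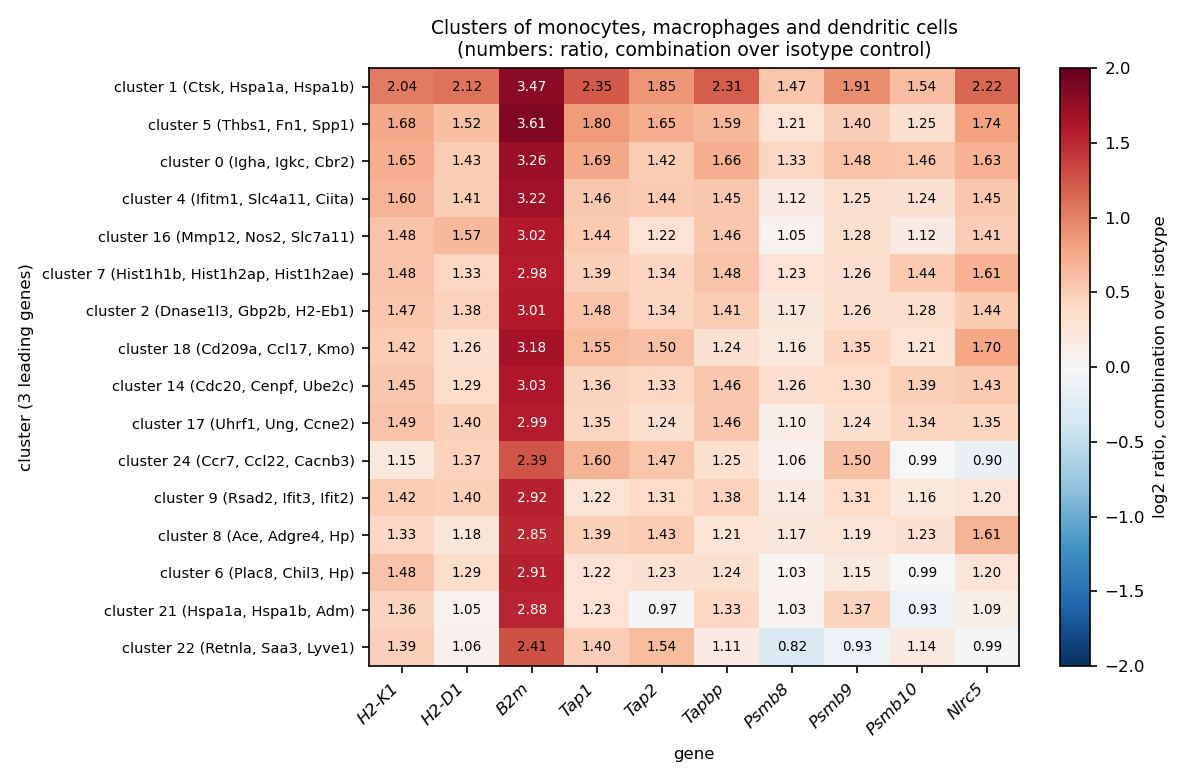
Ratio of the combination to isotype for each gene (columns) in the 16 clusters of monocytes, macrophages and dendritic cells (rows, each with its 3 leading genes), ordered by the median over the genes. Colour is the log2 ratio and the printed number is the ratio. Cluster 1 has the highest ratio for all 9 genes other than B2m, and the B2m ratio is at least 2.39 in every row.

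Neutrophils, short-lived granulocytes, showed the widest differences over the set. All 10 genes were highest in the combination, as were 16.7% of all genes, and the median combination to isotype ratio was 2.28 against 0.930 over all genes. The ratio reached 1.5 for 9 of the 10 (13.5% of all genes did), and H2-K1 fell just under it at 1.4995. Isotype was the lowest library for 7 of the 10, as it was for 19.8% of all genes. For Psmb10 the margin was small: the library titled anti-mouse FcgRII stood at 1.15 times isotype. It stood at 0.654 of isotype as a mean over cells and at 0.663 without cells in which macrophage marker UMIs reached 1%. These values rest on 118, 95, 48 and 473 cells with 509044, 399515, 280629 and 2246642 UMIs, so their intervals are wide. All neutrophils fell in the same cluster, cluster 15, so no comparison within clusters was possible. The paper reports that the combination preferentially expanded a proinflammatory neutrophil subset. Whether a different mix of subsets had a part in these ratios was not tested.

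Among neutrophils Nlrc5 stood at 224 (interval 185 to 269), 408 (348 to 476), 200 (151 to 259) and 588 (557 to 621) CPM, and the combination was 2.63 times isotype (2.17 to 3.21). The intervals of the combination and of isotype did not overlap, and the library titled anti-human CTLA-4 lay between them. Tap2 stood at 287, 425, 321 and 699 CPM (ratio 2.44, 2.06 to 2.91) and Tapbp at 507, 886, 467 and 1150 CPM (2.27, 1.99 to 2.59). Psmb8 stood at 318, 450, 410 and 731 CPM (2.30, 1.95 to 2.72). Its ratio was the smallest of the 10 in monocytes, macrophages and dendritic cells but lay above the median of the 10 here. Psmb10 rested on the fewest UMIs and had the widest interval, 80.5, 180, 92.6 and 195 CPM with a ratio of 2.42 (1.76 to 3.42).

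The heavy chains had the smallest ratios in neutrophils. H2-K1 stood at 807, 891, 627 and 1211 CPM (ratio interval 1.35 to 1.67) and H2-D1 at 371, 518, 456 and 580 CPM (1.56, 1.34 to 1.83). Against the libraries titled for the single antibodies, 3 and 9 of the 10 reached 1.5-fold, where 19.3% and 14.5% of all genes did. Macrophage marker UMIs made up 0.728%, 0.346%, 1.31% and 0.567% of the UMIs of neutrophils in the 4 libraries, and their part in the result was not tested. Without the cells in which such UMIs reached 1%, the count over isotype was again 9.

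Tumor or stromal cells were few, with 50342 to 86219 UMIs in the median cell, and they were identified by what they expressed and lacked. Of the 12 marker genes of this class, the matrix genes Col3a1 (3985 to 6039 CPM), Dcn and Sparc were the highest in all 4 libraries. Col1a1 was lower (106, 337, 174 and 100 CPM), as were Col1a2 (3.39, 114, 0.848 and 2.11 CPM) and Pdgfrb (39.9 to 57.6 CPM). The endothelial genes Pecam1 and Cdh5 stood at 34.2 CPM or less. Ptprc, which encodes CD45, stood at only 11.99 to 22.6 CPM. The epithelial keratin gene Krt8, which colon carcinoma cells can express, stood at 331, 300, 15.98 and 230 CPM, and Epcam and Cdh1 stayed under 100 CPM. Without integration, a separate cluster led by Krt19, Krt8 and Ptn held 19, 10, 1 and 7 cells. The make-up of the class thus differed between libraries. Whether the keratin-positive cells were tumor cells was not tested, nor was the part of the make-up in the values below. The CD45 sort was meant to remove these cells, so they are not a sample of the tumor.

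In these cells too, all 10 genes were highest in the combination, as were 27.4% of all genes. The library titled anti-mouse FcgRII was lowest for 8 of the 10, as it was for 22.4% of all genes. The ratio to isotype reached 1.5 for B2m, Tap1 and Nlrc5 (3.5% of all genes did), and the median was 1.28. Nlrc5 stood at 46.4, 66.7, 40.8 and 113 CPM, a ratio of 2.44 (2.07 to 2.89). The intervals of the combination and of each other library did not overlap. Tap1 stood at 154, 156, 134 and 243 CPM (1.58, 1.44 to 1.74), the first 3 being close together. Psmb9, its head-to-head neighbour, stood at 199, 166, 145 and 277 CPM (1.39, 1.28 to 1.51), and H2-K1 at 757, 687, 616 and 922 CPM (1.22, 1.17 to 1.27). The combination exceeded the library titled anti-human CTLA-4 by 1.5-fold or more for 4 of the 10 (1.16% of all genes) and the library titled anti-mouse FcgRII for 4 (3.94% of all genes).

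In T cells, whose CD8 subset reads class I, 1 of the 10 genes, B2m, reached 1.5-fold over isotype (4.18% of all genes did). Of the other 9 genes, 7 were higher and 2 lower in the combination, with ratios from 0.977 for Tap2 to 1.21 for H2-D1 and a median of 1.06. Of all genes, 41.3% were higher. Nlrc5 stood at 498, 631, 403 and 503 CPM, a ratio of 1.01 (0.944 to 1.08), and was highest in the library titled anti-human CTLA-4, as were 5 more of the 10 and 32.8% of all genes. H2-K1 stood at 1654, 1759, 1400 and 1832 CPM, a ratio of 1.11 (1.07 to 1.15). The library titled anti-mouse FcgRII was lowest for 9 of the 10 here as well, where 31.8% of all genes were. Against the libraries titled for the single antibodies, none of the 10 reached 1.5-fold in the combination (7.55% and 5.38% of all genes did).

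The make-up of the T cells differed between libraries. CD8 T cells numbered 96 in isotype and 210 in the combination and had a Nlrc5 ratio of 0.951 (0.847 to 1.07), a Tap1 ratio of 1.104 (0.971 to 1.26) and an H2-K1 ratio of 1.22 (1.14 to 1.31). Conventional CD4 T cells had ratios of 0.986 (0.843 to 1.15) for Nlrc5 and 1.03 (0.881 to 1.21) for Tap1. Regulatory T cells numbered 80, 48, 42 and only 8 in the 4 libraries and held 466744, 287358, 438123 and 93085 UMIs. UMIs per cell thus differed between libraries, and their part in the values below was not tested. In regulatory T cells each gene other than B2m stood lower in the combination than in isotype, with overlapping intervals for several, among them H2-D1 and Tap1. The share of all genes that stood lower in these cells is not given. B2m stood higher there (1457 and 2879 CPM). Their H2-K1 stood at 2337 (2201 to 2480), 2311, 1541 and 1418 (1186 to 1682) CPM in the 4 libraries. Their Nlrc5 stood at 572 (505 to 645), 773, 411 and 333 (226 to 473) CPM. For both genes the library titled anti-mouse FcgRII thus lay below isotype as well.

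NK cells and ILC1, innate lymphocytes that sense missing class I, lay between T cells and the class of monocytes, macrophages and dendritic cells. All 10 genes stood higher in the combination than in isotype, as did 53.3% of all genes, but only B2m reached 1.5-fold (4.46% of all genes did). The ratios of the other 9 ran from 1.03 for Psmb10 to 1.26 for H2-K1, and the median over all genes was 1.01. H2-K1 stood at 1191, 1553, 1222 and 1506 CPM, so that it was highest in the library titled anti-human CTLA-4. Over the libraries titled for the single antibodies none of the 10 reached 1.5-fold in the combination (7.76% and 3.45% of all genes did). Macrophage marker UMIs made up 2.28%, 1.08%, 1.92% and 1.29% of the UMIs of these cells. Cluster 12 held 308 of the 556 cells of the combination and most UMIs of the class in every library. It held 7081766, 2309931, 3079524 and 6644263 UMIs, against 1543789, 1165904, 1128647 and 1461846 in cluster 10. Nlrc5 stood at 184 and 225 CPM in cluster 12 and at 348 and 367 CPM in cluster 10, for isotype and combination. In cluster 12 a C1q gene was seen in 59.0% of cells (mean over C1qa, C1qb and C1qc). This lay just under the 60% limit at which lymphocyte clusters were set apart as mixed. In cluster 10 alone, where that mean was 26.0%, the count at 1.5-fold was again 1. In T cells the corresponding shares of macrophage marker UMIs were 0.839%, 0.459%, 1.39% and 0.683%. These genes are used by nearly all cells, so no class could serve as a blank for free RNA.

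B2m differed from its 9 partners in that the gap lay between isotype and all 3 other libraries. Over the 5 classes the ratio to isotype ranged from 1.93 to 2.53 in the library titled anti-human CTLA-4, from 1.76 to 2.17 in that titled anti-mouse FcgRII and from 2.64 to 3.34 in the combination. In the library titled anti-mouse FcgRII the 9 other genes lay at 0.705 to 0.994 of isotype in some classes, while B2m lay at 1.76 to 1.94 times it. These classes were monocytes, macrophages and dendritic cells, T cells, and tumor or stromal cells. Of all genes, 42.5%, 44.7% and 51.0% lay above isotype there. B2m was the only one of the 6530 genes tested in all 5 classes that stood at least 1.5-fold above isotype in every class and every other library, and no gene stood that far below. Over classes its combination ratio varied 1.27-fold, close to the 1.29-fold of H2-D1. It varied 1.45-fold for H2-K1 and from 1.97-fold (Psmb9) to 2.60-fold (Nlrc5) for the others. Isotype was lowest for B2m in all 27 clusters. A difference of like size in unlike cell types cannot be told apart here from a property of the isotype library. Without B2m, 3 genes in monocytes, macrophages and dendritic cells, 8 in neutrophils, 2 in tumor or stromal cells and 0 in T and NK cells reached 1.5-fold over isotype.

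**Figure D4:**
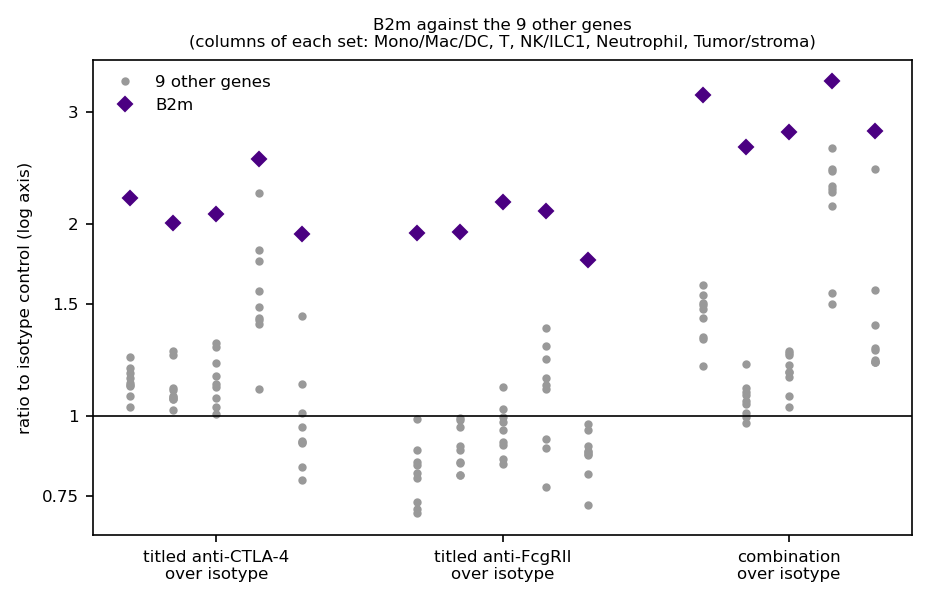
Ratio to isotype (log axis) of B2m (diamonds) and of the 9 other genes (grey points) in the 3 other libraries, with 5 columns per library for the 5 cell classes. B2m lies at 1.76 or above in all 15 columns, while the 9 others lie on both sides of 1 in the single-antibody libraries.

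The share of cells with a UMI was measured after each cell had been thinned to a fixed depth, since depth differed between libraries. At 6737 UMIs per cell, Nlrc5 was seen in 55.3% (53.9 to 56.7) of monocytes, macrophages and dendritic cells of isotype, 60.3% and 43.9% in the libraries titled for the single antibodies and 71.8% (70.5 to 73.2) in the combination, after 355 to 774 shallower cells per library were left out. Unthinned, the shares were 72.4%, 79.3%, 67.1% and 88.5%. At 1922 UMIs the shares in neutrophils were 27.1%, 43.1%, 21.0% and 57.4% (39.0%, 52.6%, 37.5% and 68.9% unthinned). Both classes thus gave the order of libraries that the levels gave. In T cells, at 2215 UMIs, the shares were 66.9%, 72.7%, 63.4% and 67.0% (83.2%, 88.5%, 87.3% and 88.2% unthinned), and in NK cells and ILC1, at 2379 UMIs, 43.0%, 47.4%, 41.1% and 42.5%, with overlapping intervals for isotype and combination in each.

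The combination to isotype ratio of monocytes, macrophages and dendritic cells, taken as 1 class, was set beside that of the other classes in the same libraries. It was larger than in T cells for 10 of the 10 genes (40.9% of all genes) and larger than in NK cells for 10 (35.8%). It was larger than in tumor or stromal cells for 6 (40.1%). In neutrophils the ratio was larger than in that class for 9 of the 10 (49.7% of all genes). With 1 library a group, these differences between classes had no test.

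Classes were also ordered by CPM, which is a share of the UMIs of a class and not an amount per cell. The median cell held 4054 to 5769.5 UMIs in T cells, 3028.5 to 3489 in neutrophils and 50342 to 86219 in tumor or stromal cells. T cells had the highest median CPM over the 4 libraries for H2-K1 (1706), Tap1 (500), Tap2 (464), Psmb8 (771), Psmb9 (544) and Nlrc5 (501). Neutrophils had it for H2-D1 (487) and Tapbp (696). Nearly every class overlapped its neighbour in this order over the 4 libraries, and the order differed between libraries. In the combination neutrophils lay above T cells for Tap1 (745 against 514 CPM), Tap2 (699 against 459) and Nlrc5 (588 against 503), and for Psmb9 with overlapping intervals (608 against 565). For Tapbp, T cells lay above neutrophils in isotype (534 against 507 CPM) and in the library titled anti-mouse FcgRII (473 against 467). Tumor or stromal cells were last for H2-D1 (190 CPM), without overlap with the next class, and for Nlrc5. For Nlrc5 their highest library (113 CPM, 105 to 122) and the lowest of monocytes, macrophages and dendritic cells (114 CPM, 112 to 116) had overlapping intervals. They were also last for H2-K1 (722 CPM), B2m (1560), Tap1 (155) and Psmb9 (183), each overlapping the next class over the libraries. They had the highest median for Psmb10 (251 CPM). Among the 27 clusters, cluster 24, migratory dendritic cells marked by Ccr7 and Fscn1, had the highest median over the 4 libraries for Tapbp, Psmb8, Psmb9 and Nlrc5, and was the highest in every library for Psmb8 and Psmb9. These cells carry antigen to lymph nodes. They numbered 37, 16, 13 and 36. Their Psmb9 stood at 680, 1057, 650 and 1020 CPM and their Nlrc5 at 599, 514, 350 and 540 CPM. Isotype was thus the highest library for Nlrc5 there and the only one in which cluster 24 was the first of the 27 for that gene. Its Nlrc5 interval in isotype (523 to 682 CPM) overlapped that in the combination (474 to 611) and that of cluster 13 in isotype (476 to 553). For Psmb9 it overlapped cluster 18 in isotype (600 to 769 against 551 to 611 CPM). The same held in the library titled anti-mouse FcgRII (544 to 771 against 543 to 632 CPM). In the combination the neutrophil cluster, cluster 15, lay above cluster 24 for Nlrc5 (588 CPM) and for Tapbp (1150 against 991 CPM). Cluster 1, the macrophages with heat-shock genes, had the lowest median for Tap2 and the next to lowest for Tap1, Tapbp, Psmb8, Psmb10 and Nlrc5. In the combination it did not keep that place for the peptide pump and tapasin, where its Tap1 (392 CPM), Tap2 (261) and Tapbp (583) lay above those of cluster 21 (314, 174 and 351) and cluster 22 (309, 253 and 458), with overlapping intervals for Tap2 in the latter.

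Other genes of the pathway were read from fixed lists. In monocytes, macrophages and dendritic cells, 3 of the 7 other class I heavy chain genes tested reached 1.5-fold in the combination over isotype, where 3.66% of all genes did: H2-Q6 (291 and 505 CPM, ratio 1.74), H2-Q7 (174 and 317 CPM, 1.82) and Cd1d1, which presents lipids (6.65, 9.70, 5.37 and 43.3 CPM over the 4 libraries, 6.504). Among the genes for transcription factors of class I genes, Irf1 did (381, 450, 278 and 695 CPM, 1.83), in the order of libraries of the TAP genes, while the median ratio over the 12 genes of that list was 0.994. None of the 3 constitutive proteasome subunit genes, the 3 proteasome activator and regulator genes tested, or the 5 loading and trimming genes did. Among those, the activator gene Psme1 had a ratio of 1.32 and the chaperone genes Canx and Pdia3 had ratios of 0.988 and 1.00. Ifngr1, a chain of the interferon gamma receptor, was lower in the combination, at 423, 340, 328 and 273 CPM (0.644).

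In neutrophils 4 of 6 other heavy chain genes reached 1.5-fold, where 13.5% of all genes did, as did Irf1 at 749, 1532, 1133 and 2026 CPM (2.71) and Tapbpl, a tapasin relative that edits bound peptides, at 58.9, 108, 85.5 and 170 CPM (2.88). In tumor or stromal cells Irf1 did (398, 423, 335 and 646 CPM, 1.62), and 0 of 4 other heavy chain genes, where 3.5% of all genes did. In T cells 0 of 7 other heavy chain genes did (4.18% of all genes), and Irf1 stood at 498, 492, 401 and 526 CPM (1.06). The median ratio over the 12 transcription factor genes was 1.31 in neutrophils, 1.11 in tumor or stromal cells and 0.969 in T cells. Ifng, the gene of interferon gamma itself, stood in T cells at 435, 1081, 257 and 1124 CPM (2.59, 2.43 to 2.76), highest in the combination and in the library titled anti-human CTLA-4. In NK cells and ILC1 it stood at 114, 210, 113 and 69.2 CPM, lowest in the combination (0.608).

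Which genes outside these lists had the most similar pattern was asked over 20 units, 5 cell groups with at least 50 cells in each of 4 libraries. The 5 were the classes above without neutrophils, and with cells of mixed lymphocyte and macrophage profiles. Pearson's r was taken between each gene's log2(CPM + 1) and the mean standardized level of the 10 genes. Among 8958 eligible genes the leading 10 were Gbp4 (r = 0.953), Gbp7 (0.939), Ifi47 (0.930), Socs1 (0.922), Herc6 (0.913), Gbp6 (0.911), Zbp1 (0.885), Rnf31 (0.875), Nfkbib (0.870) and Ric1 (0.857). Gbp4, Gbp6 and Gbp7 encode guanylate-binding proteins, which like Ifi47 are induced by interferon, and Socs1 encodes an inhibitor of interferon signalling. The units share libraries, depth and cells of the same tumors, so r is a description. Within the set the closest pair was Tap1 and Psmb9 (0.971), the head-to-head neighbours. These overlap in their GENCODE positions, and their probe positions are not given in the sources used here. Next came Tap1 and Nlrc5 (0.965), Psmb9 and Nlrc5 (0.958) and Tap2 and Psmb8 (0.957). B2m (0.611) and Psmb10 (0.208) tracked the mean of the 10 least.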

How the data were processed

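Fixed CD45-positive cells from MC38 tumors were measured in 4 libraries, 1 per group, and grouped by the sample titles and treatment fields. The values deposited were raw UMI counts, made with Cell Ranger (version 7.0.0 in the submitters' processing notes, 7.2.0 in the file header) on mm10, without normalization. The Flex assay counts probes, so a level depends on probe design. The 10 genes and the lists were chosen with earlier results of these data known.

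Cells under 500 genes or over 10% mitochondrial UMIs were removed (96 cells), and the 5% of cells with the highest Scrublet scores per library were left out (1409 cells). SCTransform, anchor integration on 2999 features (1 of the 10 genes, among the first 3000, was left out), 30 principal components and clustering at resolution 0.8 used Seurat 5.3.0 and sctransform 0.4.2 in R 4.3.3. Clusters were named from marker lists. Clusters with lymphocyte markers and C1q UMIs in at least 60% of cells (mean over C1qa, C1qb and C1qc) formed a mixed class. This limit followed a first look at the clusters. The clustering without integration used Scanpy on log-normalized counts, with its own choice of variable genes and Leiden clustering. It did not leave out the 10 genes. Cells of high doublet score, where left in, took the class of most of their 15 nearest cells.

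UMIs were summed per class and library and scaled per 1000000 with Python 3.11.15, numpy 2.4.6, scipy 1.17.1, pandas 2.3.3 and scanpy 1.11.5. Intervals are exact 95% Poisson (levels), conditional (ratios) or Clopper-Pearson binomial (shares, mean of 100 draws at the 10th percentile of UMIs of the class) intervals. A ratio of 1.5 was the fixed rule of size. Shares of all genes count genes at 10 CPM or more in either library with a UMI in both. No p-value or SE was computed. Genes named outside the 10 are those of the lists and the 10 most similar by the rule given. Counting was tested on simulated data. Positions are from the GENCODE annotation of GRCm38 and promoters from RefSeq (GRCm38.p6). Genes named in the lists but absent from the count tables, such as Psme2 and Mr1, were not analysed here. The full count of the transcription factor list is not reported here.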

Additional observations from a re-analysis of the deposited data

How the results depend on the processing

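No paired analysis was possible because each group had 1 library, which also leaves no replicate to leave out. In monocytes, macrophages and dendritic cells the count of genes at least 1.5-fold above isotype, 4, became 7 with median-of-ratios size factors, 2 with clusters weighted alike, 9 at the lower of the planned fold limits and 1 at 2-fold, which follows from ratios that lie close to 1.5. Of all genes, 7.31% passed that lower limit and 1.78% passed 2-fold. For counts with size factors or with clusters weighted alike, the share of all genes is not given. The count over the library titled anti-human CTLA-4, 0, became 1 with size factors and 6 at the lower limit (6.09% of all genes). That over the library titled anti-mouse FcgRII, 7, became 2 at 2-fold (2.67% of all genes). At the lower limit NK cells and ILC1 gave 3 over isotype (12.7% of all genes) and tumor or stromal cells 6 (12.2%). Without B2m, a choice made after seeing the data, as was the use of NK cluster 10 alone, T cells gave 0 and NK cells and ILC1 0. Of 1850 recomputed ratios, 1532 stayed within 10%, 1844 within 1.5-fold and none of those past 1.5-fold turned in direction. The 6 others were of Psmb10 and Nlrc5 in comparisons with the library titled anti-mouse FcgRII, the largest change being 1.77-fold, in NK cells and neutrophils. Without integration the combination stood at 0.752 (Psmb10) and 0.910 (Nlrc5) of that library in NK cells and ILC1, in place of 1.15 and 1.37, and the cause was not tested. Depth limited neutrophils, where Psmb10 in the library titled anti-mouse FcgRII had an interval from 60.5 to 136 CPM.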

Other observations

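Cells too few for a class comparison gave these values. Cluster 25, mast cells or basophils led by the protease genes Mcpt2, Tpsb2 and Cma1 (33, 15, 22 and 24 cells), had combination to isotype ratios from 1.72 to 3.36 over the 10 genes with a median of 2.11, against a median of 1.02 over all genes there. Cluster 23, of the same class and led by Mcpt8 and Gata2 (50, 15, 16 and 27 cells), had a median of 1.34 and a range from 0.868 to 3.73. B cells (34, 15, 20 and 11 cells) had a median of 1.32. Cluster 3, with markers of both lymphocytes and macrophages, had a median of 1.31, and there the 9 genes other than B2m lay under 1.5-fold. For cluster 23, B cells and cluster 3, the median and the share past 1.5-fold over all genes are not given.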
